A study of Mus musculus with 6 samples.

Results

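The miR-30 family is a group of microRNAs (miRNAs), short RNAs that guide the silencing of matching messenger RNAs, which was described here in extracellular vesicles of mouse bone. Its members were taken by name: the guide strands miR-30a-5p, miR-30b-5p, miR-30c-5p, miR-30d-5p and miR-30e-5p, and miR-30e-3p, the passenger strand of the miR-30e hairpin. These are 6 of the 1927 mature miRNAs in the count table, and all 6 had enough counts to be tested. Vesicles, the membrane-bound particles that cells release, came from crushed tibias and femurs of untreated male Swiss-CD1 mice of 8 weeks, after the ends of the bones had been cut off and the marrow had been spun out. Large vesicles (lEVs) were the pellet of a spin at 10000 g. Small vesicles (sEVs) were taken from the remaining supernatant at 100000 g, on a cushion of 30% sucrose. Each fraction had 3 small RNA libraries. The fractions differ in particle size, spin and cushion at once, and these cannot be told apart. No label ties a replicate to its own animals or preparation, so p-values here measure only the spread between the libraries, which may be technical. More vesicles from one kind of cell and more of a miRNA per vesicle cannot be told apart either.

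A guide strand finds its targets mainly through its seed, bases 2 to 8 from the 5′ end, so that paralogs with one seed can bind many of the same messenger RNAs. In bone, miR-30 guides are known as repressors of Runx2 and Smad1, which drive osteoblast differentiation, and in endothelium as regulators of sprouting through Dll4. The passenger strand comes from the other arm of the hairpin, has a seed of its own and is usually degraded more than the guide.

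The mature sequences that RefSeq gives for GRCm38.p6 are shown because the comparison below rests on paralogs that differ in very few bases. They matched 4 of the 6 members; miR-30b-5p and miR-30d-5p are named only. Capitals mark the seed. The guides shown have one seed and the same 12 bases at the 5′ end:
miR-30a-5p: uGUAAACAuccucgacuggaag
miR-30e-5p: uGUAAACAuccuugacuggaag
miR-30c-5p: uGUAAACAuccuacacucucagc
The passenger strands of the miR-30a and miR-30e hairpins have another seed in common:
miR-30a-3p: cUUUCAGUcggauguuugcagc
miR-30e-3p: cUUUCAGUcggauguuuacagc
Counted from the 5′ end, miR-30a-5p and miR-30e-5p differ by 1 substitution, C13U, and so do their passenger strands, G18A (the miR-30a base first). Between miR-30a-5p and miR-30c-5p there were 5 differences over 22 bases. How reads with a mismatch were assigned is not given in the sources used here, so the division of counts between miR-30a-5p and miR-30e-5p, and between their passenger strands, is uncertain to that extent. Of the rows of the table with a RefSeq sequence, the only other one with the guide seed was miR-384-5p, which was listed at 0 in all 6 libraries.

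The hairpin of miR-30e, with the guide and the passenger arm in capitals, shows how both strands come from one precursor:
Mir30e: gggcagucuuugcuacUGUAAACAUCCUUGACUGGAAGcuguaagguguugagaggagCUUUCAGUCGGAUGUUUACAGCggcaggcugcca
In the GENCODE M21 annotation of GRCm38 it lies at chromosome 4, 120772606 to 120772697 on the minus strand, in an intron of Nfyc, a subunit of the NF-Y transcription factor. Mir30c-1 lies in the same gene at 120769534 to 120769622, also in an intron and 2983 bases away. Mir30a (23272269 to 23272339, with no other annotated gene over it) and Mir30c-2 (23291701 to 23291784, in an exon of the noncoding gene Gm27028) are on the plus strand of chromosome 1, with 19361 bases between them. Mir30b (68337415 to 68337510, in an exon of the noncoding transcript Gm26621) and Mir30d (68341208 to 68341289, in exons of the noncoding gene Gm20732 and of Gm37296, whose class is still open in the annotation, TEC) are on the minus strand of chromosome 15, with 3697 bases between them. Mir30c-1 and Mir30c-2 make the same miR-30c-5p, so its counts cannot be assigned to either locus.

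The libraries held between 47441 and 114331 counts, with lEVs replicate 1 the shallowest. That library stood apart: the chi-square statistic over its degrees of freedom was 23.7 and 18.3 against lEVs replicates 2 and 3, and between 2.35 and 7.02 for the other pairs within a fraction. No defining miRNA of mineralised bone was among the marker lists. The mesenchymal list was above 0 in 5 of its 5 rows and took 11.2% to 12.7% of the counts of lEVs libraries and 12.1% to 13.8% of those of sEVs. The endothelial list, both arms of miR-126a, took 6.52% to 7.80% in lEVs and 8.24% to 8.60% in sEVs. The myeloid list (4 of 4 rows above 0) took 4.15% to 5.67% and 4.39% to 4.83%, and the skeletal muscle list (3 of 3) 1.78% to 2.58% and 1.67% to 2.00%. The cartilage list (2 of 2) took 1.41% to 2.03% in lEVs, highest in replicate 1, and 1.09% to 1.18% in sEVs. The liver miRNA miR-122-5p was listed at 0 in all libraries. So was the neural miR-124-3p, while the other neural row, miR-9-5p, took at most 0.00462% in lEVs, with 0 in replicate 1, and 0.00262% to 0.00503% in sEVs.

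miR-30d-5p was the most abundant member in every library, followed by miR-30a-5p, miR-30e-5p and miR-30c-5p. Levels are given in CPM, the count of a miRNA relative to its library total, adjusted by TMM factors, which align the libraries on the bulk of their miRNAs. They are per count of a mature miRNA, not per length, since the mature sequences shown have 22 or 23 bases, and they are not corrected for how well each sequence is captured. miR-30d-5p stood at 10120 ± 1006 CPM in lEVs and 8579 ± 463 in sEVs, and miR-30a-5p at 4073 ± 299 and 4089 ± 423 (SD, n = 3 each). miR-30e-5p stood at 2515 ± 428 CPM in lEVs and 3743 ± 392 in sEVs, and miR-30c-5p at 564 ± 153 and 651 ± 46.8. The rarest were miR-30b-5p, with 226 ± 37.6 CPM in lEVs and 111 ± 30.7 in sEVs, and miR-30e-3p, with 158 ± 44.4 and 209 ± 93.7. Among the 145 tested miRNAs, miR-30d-5p held rank 21 in lEVs and 22 in sEVs, and miR-30b-5p rank 102 and 134. Neighbours in the order were separated by more than their ranges, with 3 exceptions. miR-30a-5p and miR-30e-5p overlapped in sEVs but not in lEVs, and miR-30b-5p and miR-30e-3p overlapped in lEVs and in sEVs.

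**Figure D1:**
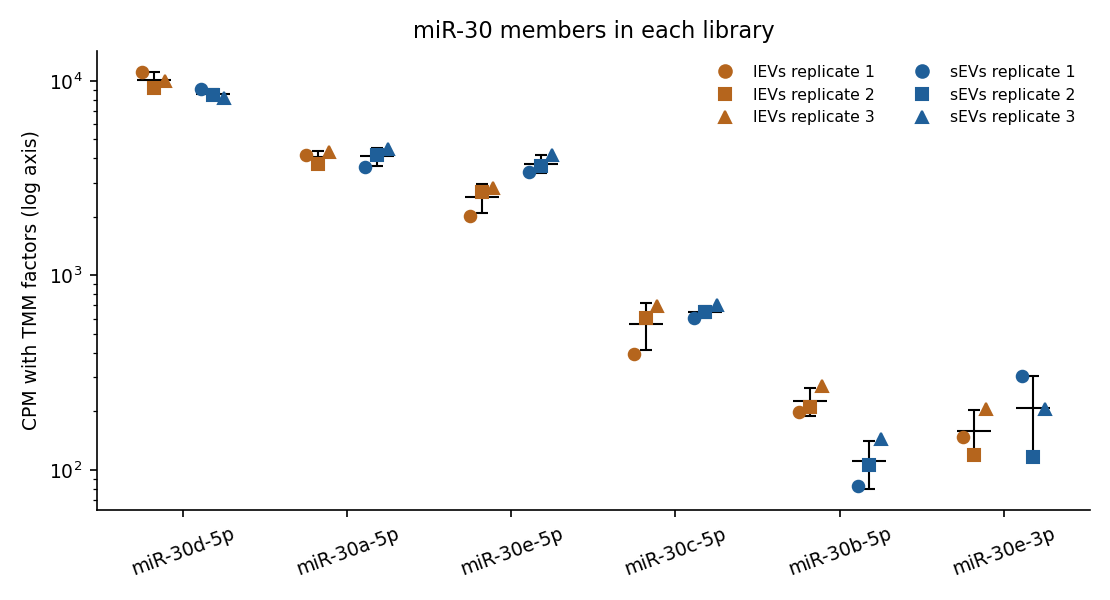
CPM with TMM factors (log axis) of the 6 members in lEVs (brown) and sEVs (blue); each point is a library, horizontal lines are means and bars SD (n = 3). miR-30e-5p lies higher in the sEVs libraries and miR-30b-5p and miR-30d-5p lie lower there, with miR-30d-5p apart by the narrow gap from 9094 to 9163 CPM.

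The summed guides overlapped between the fractions, while the proportions of miR-30e-5p, miR-30d-5p and miR-30b-5p among them did not. By CPM, the fractions did not overlap in 44.1% of all 145 tested miRNAs. The proportions are parts of one whole, so they do not vary independently. Summed, the guides took 1.53%, 1.93% and 2.02% of the counts of lEVs replicates 1, 2 and 3. In sEVs replicates 1, 2 and 3 they took 1.61%, 1.62% and 1.72%. The lEVs libraries lay on either side of those of sEVs, with means of 1.83% ± 0.262 and 1.65% ± 0.0602 (SD, n = 3 each). The 95% Wilson interval of lEVs replicate 1, from 727 guide counts, was 1.43% to 1.65%. Such intervals cover counting error only.

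Within the guide counts, a measure that does not depend on library scaling, miR-30e-5p made up 11.3%, 16.4% and 15.6% in lEVs replicates 1, 2 and 3 and 20.3%, 21.4% and 23.6% in those of sEVs. All 3 sEVs values were above all lEVs values, and the Wilson interval of lEVs replicate 2 (14.8% to 18.2%) ended just above the start of that of sEVs replicate 1 (18.1% to 22.6%). miR-30d-5p took 62.2%, 55.8% and 55.4% in lEVs and 54.1%, 49.6% and 46.4% in sEVs. Its fractions were also apart, though lEVs replicate 3 and sEVs replicate 1 differed by less than their counting error. miR-30b-5p made up 1.29% ± 0.191 in lEVs and 0.642% ± 0.161 in sEVs, without overlap (SD, n = 3 each). miR-30a-5p made up 23.3% ± 0.506 and 23.8% ± 1.94, and miR-30c-5p 3.24% ± 0.900 and 3.79% ± 0.176, both with overlapping libraries.

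**Figure D2:**
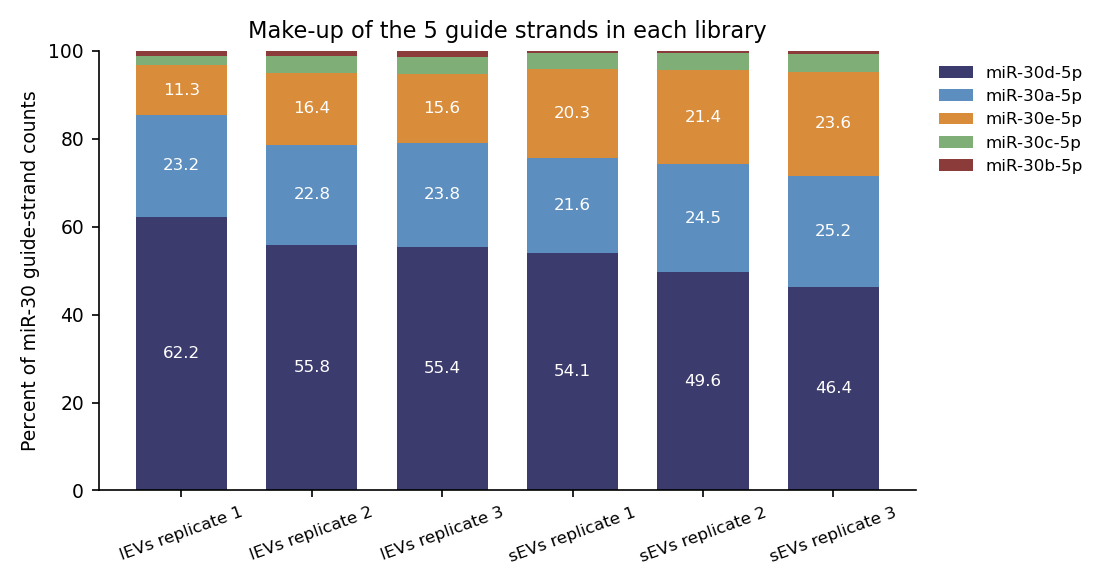
Percent of the summed counts of the 5 guide strands (y axis) that each guide took in each of the 6 libraries; segments over 6% carry their value. The miR-30e-5p segment runs from 11.3% to 16.4% in lEVs and from 20.3% to 23.6% in sEVs, and that of miR-30d-5p from 55.4% to 62.2% and from 46.4% to 54.1%.

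The 2 vesicle fractions are the only contrast of the study. By the quasi-likelihood test of edgeR, adjusted by Benjamini-Hochberg over all tested miRNAs, none of the 6 miR-30 members had an adjusted p under 0.05, while 17.2% of the 145 tested miRNAs had one. At an unadjusted p under 0.05 there were 2 of the 6, miR-30e-5p and miR-30b-5p, against 37.9% of all tested. DESeq2 called 1 of the 6, miR-30e-5p, against 25.5% of the 145, and limma voom called the same 1, against 20%. In 3 of the 6 members the libraries of the fractions did not overlap, as in 44.1% of the tested miRNAs. The members' median log2 fold change (sEVs relative to lEVs) was 0.08, against -0.04 over all tested miRNAs.

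miR-30e-5p, a guide from the Nfyc intron, lay just short of the threshold on the side of sEVs. It had 82, 294 and 273 counts in lEVs replicates 1, 2 and 3 and 247, 345 and 465 in those of sEVs, or 2026, 2699 and 2820 CPM against 3409, 3647 and 4175. Every sEVs library was above every lEVs library, and lEVs replicate 1 was the lowest of all. The fitted sEVs level was 1.47-fold that of lEVs, a log2 fold change of 0.56 with an SE of 0.16 (adjusted p = 0.0503 in edgeR). The call turned on the choice of method: the adjusted p was 0.0246 in DESeq2, 0.0375 in limma voom and 0.0179 in edgeR without lEVs replicate 1, where the log2 fold change was 0.44 and 34.4% of 151 miRNAs were called. Leaving out any of the other 5 libraries gave 0.0526 to 0.177, with no call. With library totals in place of TMM it was 0.229, for a log2 fold change of 0.41. Even the totals behind the TMM factors moved it across: with factors computed from the totals of the tested miRNAs alone, the form of the edgeR test that was run first, it was 0.0492 and miR-30e-5p was called. The endothelial list, with 2 of 2 rows above 0, was also higher in every sEVs library. So were the lymphoid miR-150-5p, with 0.179% to 0.215% of the counts in sEVs and 0.0864% to 0.134% in lEVs, and the epithelial list, with 0.0455% to 0.0493% and 0.0232% to 0.0389%, 5 of its 6 rows above 0 and miR-200b-3p at 0. Of the epithelial rows only miR-203-3p was among the tested miRNAs, with 216 ± 80.9 CPM in lEVs and 426 ± 38.8 in sEVs (SD). Of the tested rows of these lists, edgeR called miR-150-5p (adjusted p = 0.00268). It did not call miR-203-3p (0.0542), miR-126a-3p (0.126) or miR-126a-5p (0.131). The part of these markers in the level of miR-30e-5p was not tested.

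miR-30b-5p, from the chromosome 15 cluster, lay on the side of lEVs, on few counts. It had 8, 23 and 26 counts in lEVs replicates 1, 2 and 3 and 6, 10 and 16 in those of sEVs, or 198, 211 and 269 CPM against 82.8, 106 and 144. The fractions were apart in CPM, but the counting error is wide at this depth: in CPM of the library total, with no TMM factor, the Wilson interval was 85.5 to 333 in lEVs replicate 1 and 86.1 to 227 in sEVs replicate 3. The level was 2.01-fold higher in lEVs (edgeR adjusted p = 0.0542; log2 fold change -1.01, SE 0.31). The threshold was passed in edgeR under library totals (adjusted p = 0.0441), where 24.1% of the 145 passed, or if lEVs replicate 1 was left out (0.0424), but not in DESeq2 or limma voom. The cartilage list, with 2 of 2 rows above 0, was also higher in every lEVs library as a share of the counts. In CPM with TMM factors its 2 rows, miR-140-3p and miR-140-5p, each overlapped between the fractions. The part of this list in the level of miR-30b-5p was not tested.

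miR-30d-5p, the neighbour of miR-30b-5p on chromosome 15, had 11168, 9163 and 10029 CPM in lEVs replicates 1, 2 and 3 and 9094, 8447 and 8197 in sEVs. All lEVs libraries were above the sEVs libraries, the closest by less than the SD of either fraction (edgeR adjusted p = 0.196; log2 fold change -0.24, SE 0.13).

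miR-30a-5p, which differs from miR-30e-5p by 1 base, had nearly the same mean level in both fractions. It had 4176, 3737 and 4307 CPM in lEVs replicates 1, 2 and 3 and 3629, 4176 and 4462 in sEVs. The libraries were interleaved (edgeR adjusted p = 0.960; log2 fold change 0.01, SE 0.13), and the sign turned with library totals (-0.12).

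miR-30c-5p, made by one hairpin next to Mir30e and another near Mir30a, had 395, 606 and 692 CPM in lEVs replicates 1, 2 and 3 and 607, 645 and 700 in sEVs. Only lEVs replicate 1, with 16 counts, lay far from the rest. The log2 fold change was 0.16 (SE 0.21; edgeR adjusted p = 0.581), 0.01 without that library, and with library totals its sign turned to -0.00338.

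miR-30e-3p, the passenger strand, had 148, 119 and 207 CPM in lEVs replicates 1, 2 and 3 and 304, 116 and 206 in sEVs, from 6 to 23 counts. The libraries were interleaved except sEVs replicate 1, which lay above the rest (edgeR adjusted p = 0.513; log2 fold change 0.36, SE 0.41).

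**Figure D3:**
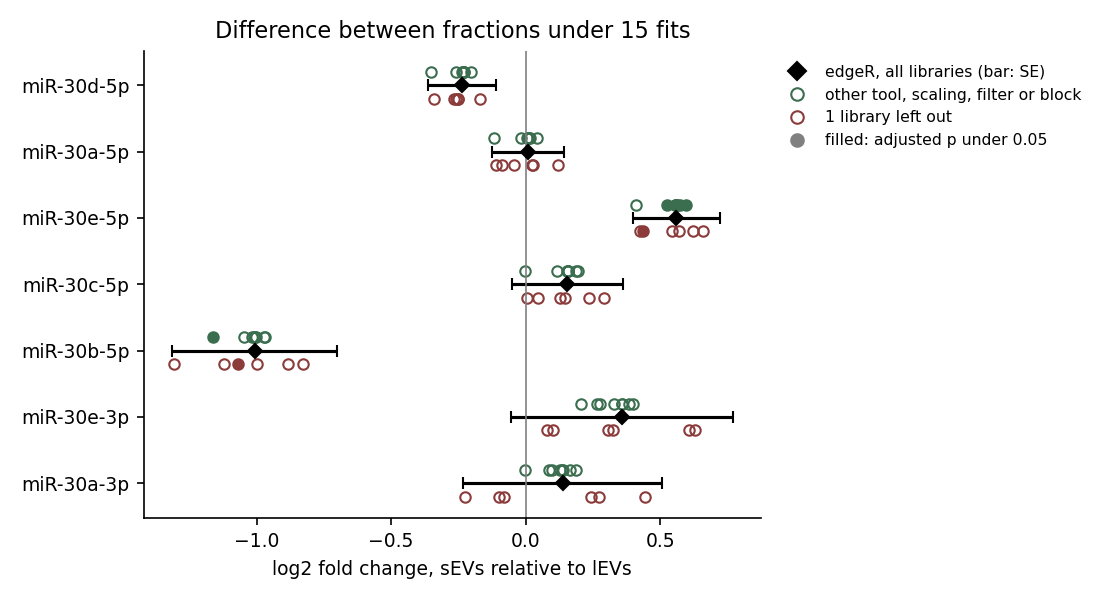
Log2 fold change (x axis, sEVs relative to lEVs) of the 6 members and of miR-30a-3p in edgeR with all libraries (diamonds, bar SE), with another tool, scaling, filter or a replicate block (green) and with 1 library left out (red); filled circles have an adjusted p under 0.05. miR-30e-5p stays above 0 and miR-30b-5p and miR-30d-5p stay below 0 in the fits shown, while miR-30a-5p lies on both sides.

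Whether paralogs are divided differently between the fractions was tested on their ratios within a library, which hardly depend on scaling. Log2 ratios of CPM, with a pseudocount of 10 CPM, were fitted with limma over all 10440 pairs of tested miRNAs. Of the 15 pairs of members, 3 passed at an adjusted p under 0.05, where 17.2% of all pairs did. All 3 had miR-30b-5p on one side, against miR-30e-5p, miR-30c-5p and miR-30a-5p. In 8 of the 15 the count ratios of the fractions did not overlap, against 44.4% of all pairs without a 0. An exact two-sided permutation test of 3 against 3 libraries cannot go below 0.1, and gave that value for 7 of the 15 pairs.

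The widest gap was between miR-30e-5p and miR-30b-5p. There were 10.2, 12.8 and 10.5 counts of miR-30e-5p per count of miR-30b-5p in lEVs replicates 1, 2 and 3, and 41.2, 34.5 and 29.1 in those of sEVs. The 2 groups of ratios were far apart. The ratio was 2.95-fold higher in sEVs (log2 difference 1.56, 95% interval 0.93 to 2.19; limma adjusted p = 0.0148). Leaving out 1 library gave adjusted p-values from 0.0173 to 0.0739, and the pair missed the threshold only without lEVs replicate 3, where limma called 0% of all pairs. The ratios of miR-30c-5p and miR-30a-5p to miR-30b-5p were 2.32-fold (log2 difference 1.22, interval 0.53 to 1.90; limma adjusted p = 0.0343) and 1.98-fold (0.98, 0.35 to 1.62; 0.0486) higher in sEVs. Both held only without lEVs replicate 1 among the 6 fits that left out a library: each of the other 5 ended the call, with adjusted p-values up to 0.108 and 0.154. A replicate block ended all 3 calls, with limma adjusted p-values of 0.0577 for miR-30e-5p, 0.0881 for miR-30c-5p and 0.0926 for miR-30a-5p against miR-30b-5p.

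For the near-identical miR-30a-5p and miR-30e-5p, there were 2.06, 1.38 and 1.53 counts of miR-30a-5p per count of miR-30e-5p in lEVs replicates 1, 2 and 3 and 1.06, 1.14 and 1.07 in those of sEVs. Every library had more miR-30a-5p, by a small margin in sEVs and a wider one in lEVs. The difference did not pass (log2 0.58 toward miR-30e-5p in sEVs, 95% interval -0.06 to 1.22; limma adjusted p = 0.167; exact permutation p = 0.1). miR-30d-5p had 5.51, 3.39 and 3.56 counts per count of miR-30e-5p in lEVs and 2.67, 2.32 and 1.96 in sEVs. These ratios were also apart without passing (log2 0.82, 95% interval 0.09 to 1.54; limma adjusted p = 0.103). Among guides that share a cluster, miR-30b-5p to miR-30d-5p differed by a log2 value of -0.74 (limma adjusted p = 0.148). The interval of the other way round, miR-30d-5p to miR-30b-5p, was -0.04 to 1.52. For miR-30e-5p to miR-30c-5p the difference was 0.34 (interval -0.24 to 0.93; limma adjusted p = 0.341). For miR-30b-5p with miR-30d-5p and for miR-30e-5p with miR-30c-5p, the count ratios of the fractions did not overlap. With Mir30c-2 near Mir30a, miR-30c-5p to miR-30a-5p differed by 0.23, with overlapping ratios (interval -0.49 to 0.96, limma adjusted p = 0.597). The intervals of these cluster neighbours and of miR-30a-5p with miR-30e-5p include differences in either direction.

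**Figure D4:**
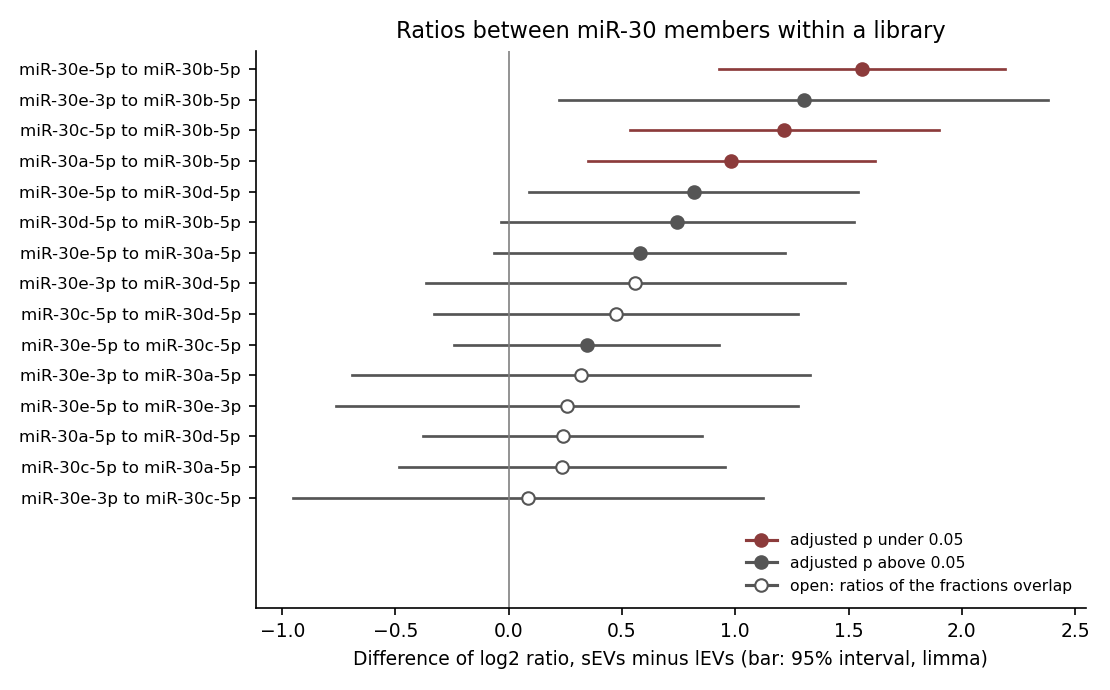
Difference between sEVs and lEVs in the log2 ratio of the first to the second named member (x axis), for the 15 pairs, with limma's 95% interval; red marks an adjusted p under 0.05, and open circles mark ratios that overlap between the fractions. The 3 red pairs all compare miR-30b-5p with another guide, from 0.98 to 1.56.

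The arms of the miR-30e hairpin showed no detectable difference in balance at this depth. Per 100 counts of miR-30e-5p there were 7.32, 4.42 and 7.33 counts of miR-30e-3p in lEVs replicates 1, 2 and 3 and 8.91, 3.19 and 4.95 in those of sEVs. The libraries of sEVs spanned those of lEVs, and the log2 difference of the ratio of passenger to guide was -0.26 (SE 0.43; limma adjusted p = 0.685). The miR-30a hairpin, whose arms differ from those of miR-30e by 1 base each, had a similar balance, with 7.83 ± 3.51 counts of miR-30a-3p per 100 of miR-30a-5p in lEVs and 7.83 ± 2.55 in sEVs (SD, n = 3 each). For miR-30a-3p itself, with 19 to 42 counts, the log2 fold change was 0.14 ± 0.37 (SE; edgeR adjusted p = 0.797).

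The table held 12 rows from miR-30 hairpins, of which 11 were above 0 in any library and 7 were tested. The untested passenger strands were nearly empty. miR-30c-2-3p had 3, 7 and 5 counts in lEVs replicates 1, 2 and 3 and 6, 0 and 3 in sEVs. miR-30b-3p, miR-30d-3p and miR-30c-1-3p had totals of 5, 2 and 3 counts over the 6 libraries, so the passenger of the most abundant guide, miR-30d-5p with 4792 counts, was almost absent from the table. miR-30f, annotated on the strand opposite miR-30e, was listed at 0 throughout.

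Spread among paralogs was compared with that of other seed groups. Of the 145 tested miRNAs, 129 had a seed from RefSeq or, for miR-30b-5p and miR-30d-5p, were placed with the guides by name, and 7 groups had at least 3 tested rows. From miR-30b-5p to miR-30e-5p the log2 fold changes of the miR-30 guides covered a range of 1.57. This was the second widest after the miR-16-5p group (1.81 over 6 rows), with a median of 1.32 over the 7 groups. The let-7 group covered 1.32 over 9 rows, and the miR-99b-5p group, the narrowest, 0.34 over 3 rows. The groups differ in their number of rows and in their counts, which a range does not take into account. Without miR-30b-5p, the guide with the fewest counts, the miR-30 range was 0.80. Leaving out an end row can only narrow a range, and the other groups kept all their rows. The value of 0.80 can therefore not be ranked against their ranges.

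**Figure D5:**
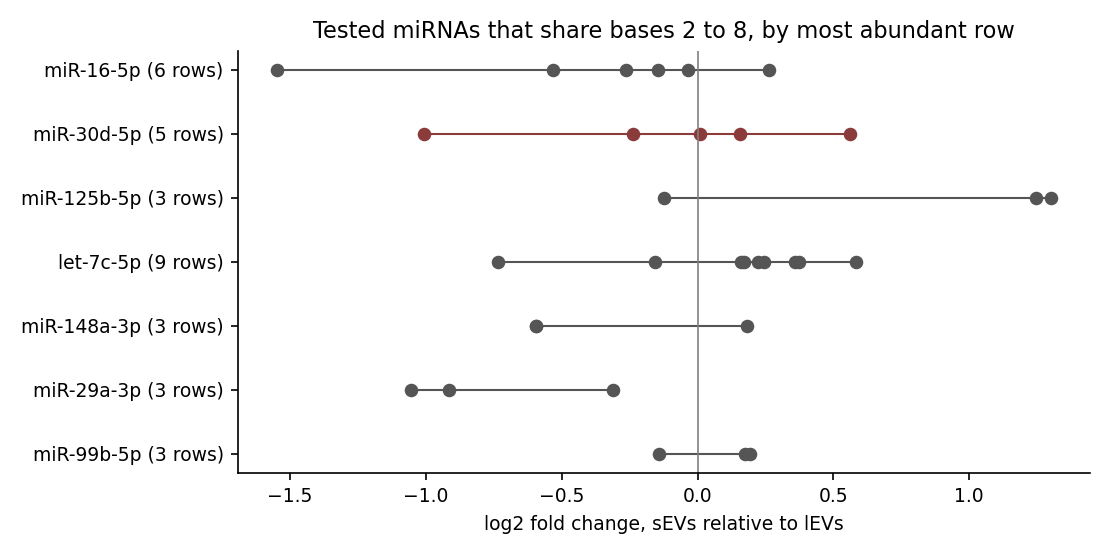
Log2 fold change (x axis, sEVs relative to lEVs) of each tested miRNA in the 7 groups that share bases 2 to 8, named by their most abundant row and ordered by range; each point is a miRNA. The miR-30 guides (red) run from -1.01 to 0.56, on both sides of 0.

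The miRNAs most like each member were sought among 130 others whose mean level reached 100 CPM and that had no 0, by Pearson's r of log2 CPM over the 6 libraries. As the highest of 130, and with points that share 2 fractions and the depth of each library, these values are descriptions only. Closest to miR-30e-5p was miR-126a-5p, an endothelial miRNA (r = 0.98, Spearman's rho = 1), with 7443 ± 1247 CPM in lEVs and 9637 ± 880 in sEVs (SD, n = 3 each). Closest to miR-30d-5p was the muscle miRNA miR-206-3p (r = 0.95, rho = 0.94) and to miR-30b-5p miR-361-3p (r = 0.97, rho = 0.94). For miR-30c-5p it was miR-20a-5p, where the ranks matched less well (r = 0.94, rho = 0.6). By r, the best matches were weaker for miR-30a-5p (the joined row miR-101a-3p/101b-3p/101c, r = 0.72) and miR-30e-3p (miR-574-3p, r = 0.76). For the summed guides they were let-7f-5p, miR-140-5p and miR-142a-3p (r = 0.77, 0.70 and 0.70).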

How the data were processed

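Small RNA libraries were read as 75 bases from one end on a MiSeq, after miRNeasy extraction and QIAseq miRNA library preparation, per the labels' protocols. The deposited values are raw counts for each mature miRNA in each library, with no normalization by the authors. The submitters' processing notes name build GRCm38, R 4.2.2 and DESeq2 1.38.2. Which aligner was used, how mismatches and strand were treated, and whether molecular identifiers were counted is not given in the sources used here. As the table held 0 values of 1, a 0 may stand for 0 or 1 count.

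Columns were assigned to libraries by their labels. Counts were tested in R 4.3.3 with edgeR 4.0.16 (quasi-likelihood, TMM on the full library totals; a first form took the TMM factors from the totals of tested miRNAs and was replaced after its calls were seen). filterByExpr, with a minimum count of 10 and a minimum total of 15, kept 145 of the 327 miRNAs above 0. P-values were adjusted by Benjamini-Hochberg and called at 0.05. SE of a log2 fold change is its absolute value divided by the square root of F. Ratios were fitted with limma 3.58.1. Both tests were also run on data simulated with planted changes larger than those of the members. No simulated library was made to stand apart as lEVs replicate 1 did. How well changes as small as those of the members are found was thus not examined. Alternatives were DESeq2 1.42.0, limma voom, other scalings, filters and pseudocounts, a replicate block and leaving out each library. The text names the 6 members, other rows of miR-30 hairpins or with the guide seed, the rows most like them and the groups of shared seed. Members and lists were chosen with earlier results of these data known.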

Additional observations from a re-analysis of the deposited data

How the results depend on the processing

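Counts limit the rarer strands most: miR-30b-5p and miR-30e-3p rest on 89 and 95 counts over all libraries. Of all tested miRNAs edgeR called 25, 12 higher in sEVs and 13 in lEVs; this became 53 (20 and 33) without the filter on low counts and 16 to 52 when 1 library was left out (8 to 29 higher in sEVs, 8 to 23 in lEVs), with 52 without lEVs replicate 1 and 16 without lEVs replicate 3. DESeq2 called 19 higher in sEVs, and library totals gave 24 higher in lEVs and 11 in sEVs. The median log2 fold change was -0.18 with library totals and -0.04 with TMM. Why the number of calls changed between these fits was not tested.

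With TMM factors from the totals of the tested miRNAs, applied to the full library totals, edgeR called 26 miRNAs, 13 in each direction, and miR-30e-5p among them (log2 fold change 0.56, adjusted p = 0.0492). This was the first form of the test; it was replaced, after its calls had been seen, by the usual form, in which the full library totals serve both steps, and so counts as chosen after seeing the data. The adjusted p of 0.0503 in the form reported lies too near the threshold for either call to be firm.

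miR-30e-5p passed in DESeq2 (log2 fold change 0.56), limma voom (0.55), without the filter (0.53), under a minimum mean level of 100 CPM (0.60) and with the replicate block (0.57; edgeR adjusted p = 0.0359), fits that called 16.2% to 25.5% of the miRNAs they tested, and ranged from 0.43 to 0.66 with 1 library left out. miR-30b-5p passed with library totals (-1.16), and ranged from -1.31 to -0.83 when 1 library was left out. miR-30a-5p turned to -0.12 with library totals and to -0.018 without the filter, and ranged from -0.11 to 0.12 with 1 library left out; miR-30c-5p turned to -0.00338 and miR-30a-3p to -0.00080 with library totals. With 1 library left out, miR-30a-3p ranged from -0.23 to 0.44. miR-30d-5p stayed below 0 and miR-30e-3p above 0 in every fit tried.

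Whether the replicate numbers pair the libraries could not be decided from 3 libraries per fraction. Deviations of libraries with the same number correlated by -0.08, 0.08 and 0.39, and those with different numbers by -0.32 to 0.14. With the replicate block edgeR called 26 miRNAs, 13 in each direction, and 0 of the 15 pairs of members passed, where 2.39% of all pairs did. Leaving out 1 library left 0 to 3 pairs, where 0% to 21.8% of all pairs passed. With a pseudocount of 1 CPM, miR-30a-5p to miR-30b-5p missed the threshold (1.05; limma adjusted p = 0.0502). With 1 library left out, the ratio differences of miR-30a-5p to miR-30c-5p (-0.36 to 0.014), miR-30a-5p to miR-30e-3p (-0.68 to 0.071), miR-30c-5p to miR-30e-3p (-0.43 to 0.27) and miR-30e-3p to miR-30e-5p (-0.63 to 0.072), none of them called, changed sign. The log2 ratio of the summed guides between fractions was -0.15 by their share of the counts, and 0.087 by that share without miR-30d-5p. By summed CPM with TMM factors it was -0.027. The range of log2 fold changes of the guides fell from 1.57 to 0.80 without miR-30b-5p, a setting chosen after seeing the data.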
